A study of Glycine max with 10 samples.

Results

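Pdh1 (Glyma.16G141400) is a soybean gene of chromosome 16 that encodes a dirigent-like protein and underlies a quantitative trait locus for pod dehiscence. The genes described here are the 130 IDs that run from Glyma.16G135000 to Glyma.16G148000 in the numbering of chromosome 16, without Pdh1 itself, out of 56044 IDs in all. They were chosen by their place in the ID series and not by any measured value. Consecutive IDs differ by 100, so Pdh1 has 64 of them below it and 66 above it.

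Dirigent proteins steer the coupling of the phenolic units from which lignans, and in part lignin, are built. In soybean pods Pdh1 is expressed in the inner sclerenchyma of the pod wall while it lignifies, where it raises the twisting force of the drying wall, and a loss-of-function allele carries resistance to shattering. That allele spread during the breeding of soybean, and genes close to a selected locus tend to be inherited with it. The neighbours of Pdh1 are therefore the genes for which soybeans that differ at Pdh1 are most likely to differ in haplotype as well.

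Pods of 10 field-grown soybeans (Glycine max) were sampled 18 days after flowering and sequenced as paired-end RNA libraries. High pod shattering force was the label of soybeans 015, 018, 044, 060 and 071 (high_force), and low pod shattering force that of 038, 055, 072, 092 and 109 (low_force). The labels used here give no genotype, treatment or Pdh1 allele for either group, and whether a numbered soybean is a plant, a line or a pool is not stated, so the p-values rest on the spread among these 10 libraries, which may be technical. The comparison asks whether genes beside Pdh1 differ with the force group or with the Pdh1 level.

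Libraries held between 3779756 and 13298201 counts, and TMM scaling (the trimmed mean of M-values, which sets most genes level between libraries) brought their effective depth to between 921615 (low_force 055) and 20099288 (high_force 044). Low_force 055 held 6528403 counts before scaling, so it is called shallow below for its effective depth and not for its total. Levels are given in counts-per-million (CPM) of the effective depth. Where no read was counted, up to 3 may still be missed by chance, or 0.149 CPM in high_force 044 and 3.26 CPM in low_force 055, a limit that covers counting error alone. The pod wall genes SHAT1-5 and NST1A were present in all 10 libraries (17.4 to 30.8 and 25.4 to 44.9 CPM). Low_force 109 stood apart for the seed storage gene Gy1, at 5571 CPM against at most 65.3 CPM elsewhere. The clock gene LHY1a, which peaks around dawn, divided the libraries into 3 with a high level (high_force 015, low_force 055 and low_force 072, 646.7 to 1041 CPM) and 7 with a low level (11.8 to 19.3 CPM). In such bulk samples, fewer cells of a type and less RNA per cell cannot be told apart.

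Pdh1 itself had 3, 12, 8, 3 and 7 counts in high_force 015, 018, 044, 060 and 071, which make 0.495, 2.25, 0.398, 0.563 and 0.582 CPM. It had 44, 0, 25, 208 and 224 counts in low_force 038, 055, 072, 092 and 109, or 5.11, 0, 5.75, 20.8 and 22.6 CPM. The level was thus higher in 4 of 5 low_force libraries than in any high_force library, and low_force 055 was too shallow to be placed.

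After TMM scaling, the stretch as a whole summed to a like level in every library. The 130 members summed to 1217, 1127, 1113, 1054 and 1055 CPM in high_force 015, 018, 044, 060 and 071, and to 943.3, 1285, 1135, 1079 and 1015 CPM in low_force 038, 055, 072, 092 and 109. Low_force 055, the highest of these sums, rests on 1184 counts, and low_force 038 gave the lowest. High_force averaged 1113 ± 67.0 CPM and low_force 1091 ± 130 CPM (SD, n = 5 each), a difference smaller than the spread within either group. As a share of all deposited counts, without TMM scaling, the stretch took 0.139% to 0.168% in high_force and 0.0181% (low_force 055) to 0.127% in low_force. These ranges did not overlap, but without TMM scaling genes at large lay higher in high_force. With library size only as scaling, the median log2 fold change of high_force minus low_force was 0.54 over all genes tested and 0.55 over the tested members. Groups that did not overlap were then seen for 3 members, against 5% of all genes tested. A count was seen for 93.0 ± 7.07 members per high_force library and 81.6 ± 6.58 per low_force library. The fewest, 73, were in the shallow low_force 055 and the most, 102, in high_force 044, which has the greatest effective depth. The part of depth in these numbers was not tested.

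Of the 130 members, 22 were silent, with 0 counts in all 10 libraries. That is 16.9% of the stretch, against 16.6% of all IDs of the table and 15.4% of the 2223 IDs of chromosome 16. The 130 IDs before the stretch held 24 silent IDs and the 130 after it 13. Silence was spread unevenly along the stretch: the 22 silent IDs lay among the first 87, from Glyma.16G135100 to Glyma.16G143700, and the last 43 IDs held none. The fullest segment of 10 IDs was Glyma.16G140000 to Glyma.16G140900, just before Pdh1, with 6 silent IDs. Silent IDs stood alone or in pairs, the 4 pairs being Glyma.16G137400 and Glyma.16G137500, Glyma.16G138900 and Glyma.16G139000, Glyma.16G140000 and Glyma.16G140100, and Glyma.16G140400 and Glyma.16G140500. With a limit of at most 3 counts in every library in place of 0, 35 members qualified.

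The other 108 members had a count somewhere, and 64 of them passed the filter on low counts and were tested (49.2% of the stretch, against 53.9% of all IDs). The 44 with counts that were not tested reached at most 17.8 CPM in any library, and 13 of these had at most 3 counts in every library. Of the 64 tested members 57 had a count in all 10 libraries. Their mean level over the 10 libraries ran from 0.978 to 82.3 CPM, with a median of 11.5 CPM, against 10.8 CPM over all genes tested. Gene lengths were not used, so these CPM values compare libraries for 1 gene and do not rank genes by transcript level.

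**Figure D1:**
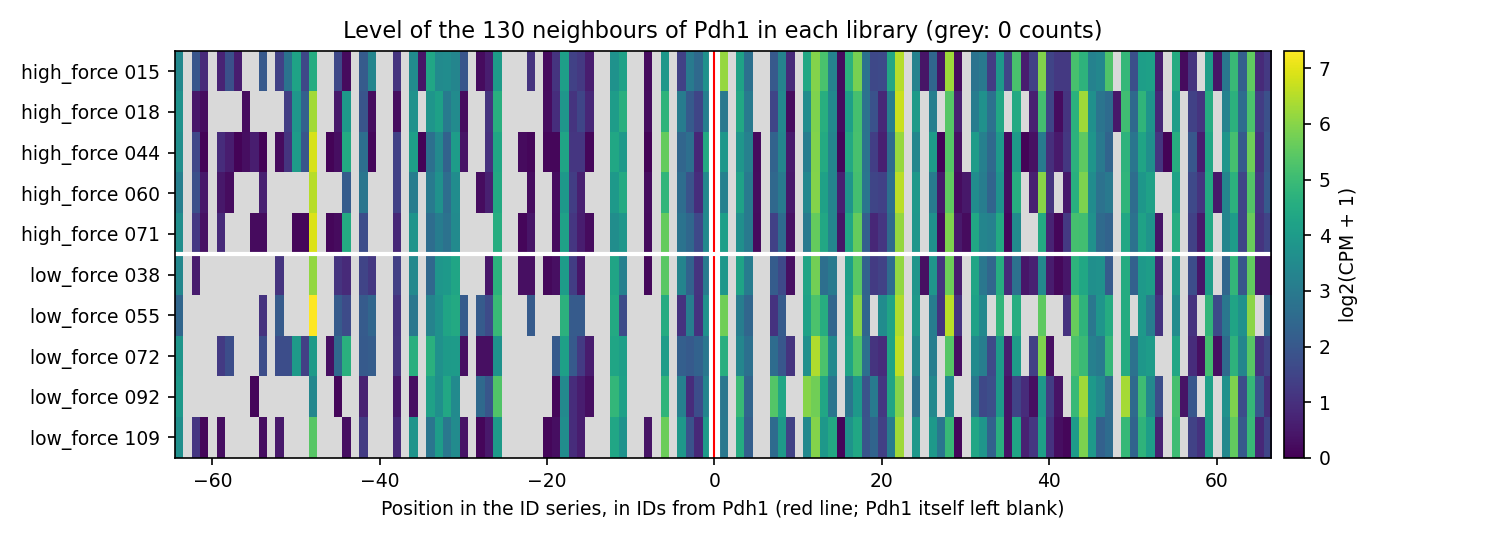
Level of the 130 neighbours of Pdh1 as log2(CPM + 1), with IDs in order along the horizontal axis (0 is Pdh1, left blank) and the 10 libraries as rows, high_force above the white line. Grey cells had 0 counts. Grey columns, the silent IDs, lie to the left of position 24, and the row of low_force 055 has the most grey, with a count for 73 members against 76 to 102 in the other libraries.

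The 4 members with the highest mean CPM differed in how steady they were. Glyma.16G143600 stood at 89.6, 106.0, 72.4, 93.9 and 70.4 CPM in high_force 015, 018, 044, 060 and 071, and at 68.5, 86.8, 96.8, 61.7 and 76.9 CPM in low_force 038, 055, 072, 092 and 109. Its highest library was 1.72 times its lowest, the only range under 2-fold among the tested members with a count in every library. Glyma.16G142600 was nearly as steady, between 36.9 and 86.6 CPM. Glyma.16G144200 ran from 10.5 CPM in low_force 092 to 93.3 CPM in low_force 055. Glyma.16G136600 varied most of the 4, by 16.9-fold. It lay at 22.0, 78.1, 116.5, 91.6 and 121.0 CPM in high_force 015, 018, 044, 060 and 071, and at 69.2, 158.4, 14.9, 9.38 and 41.4 CPM in low_force 038, 055, 072, 092 and 109. Each group thus held low and high libraries of this gene. Of the 64 tested members, 32 spanned over 4-fold between libraries or had 0 counts in at least 1 library.

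Some members had counts in some libraries and 0 counts in others. A member was called on/off when it had 0 counts in at least 1 library and, in another, a CPM of at least 10 times what 3 counts make in such a library at 0. This held for 14 of 130 members (10.8%), against 4.41% of all IDs and 5.94% of chromosome 16. The share was 3.85% in the 130 IDs before the stretch and 12.3% in the 130 after it. Most on/off members stayed low: the highest library was at 24.1 CPM for Glyma.16G137000, 17.8 CPM for Glyma.16G136400 and 2.17 to 9.08 CPM for the others. Without low_force 055 the count was 11, since 3 members (Glyma.16G136200, Glyma.16G139200 and Glyma.16G147400) met the rule only through 2 or 3 counts in that shallow library. When on libraries also had to hold over 10 counts, a condition added after seeing the data, 11 members met the rule (8.46%, against 3.40% of all IDs). The on/off members were bunched: 12 of the 14 lay among the 33 IDs from Glyma.16G136000 to Glyma.16G139200. Of the other 2, Glyma.16G144100 and Glyma.16G147400, neither is among the 20 IDs nearest to Pdh1.

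The on/off member with the highest level among those not tested was Glyma.16G136400. It stood at 17.8, 13.3 and 15.1 CPM in high_force 015, 018 and 044 (108, 71 and 303 counts) and at 14.7 CPM in low_force 072 (64 counts). High_force 071 had 1 count, and high_force 060 and low_force 038, 055, 092 and 109 had 0 counts. These 4 libraries lay close in level and cut across the force groups, 3 from high_force and 1 from low_force. The lowest of them, high_force 018, was at least 23.6-fold higher than the libraries at 0 other than low_force 055 (high_force 060 and low_force 038, 092 and 109), with 3 counts per library as the limit. At that level low_force 055 would have given 12.3 counts and had none, a difference of at least 4.09-fold. The Pdh1 level overlapped between these sets of libraries, at 0.398 to 5.75 CPM in the 4 with Glyma.16G136400 and 0 to 22.6 CPM in the other 6.

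The IDs on both sides of Glyma.16G136400 had their counts in the same 4 libraries. Glyma.16G136300 had 36, 8 and 23 counts in high_force 015, 018 and 044 (5.94, 1.5 and 1.14 CPM), 10 counts in low_force 072 (2.30 CPM) and 0 in the other 6. Glyma.16G136500 had 12, 20 and 58 counts in high_force 015, 018 and 044 (1.98, 3.75 and 2.89 CPM) and 7 counts in low_force 072 (1.61 CPM). Beyond these it had 1 count in high_force 071 and 0 in the other 5. For both, the 0 counts in low_force 055 allow up to 3.26 CPM, a level that some of the libraries with counts did not reach. The 3 consecutive IDs thus shared 1 set of libraries, apart from low_force 055, which cannot be placed for Glyma.16G136300 and Glyma.16G136500. Any of these 3 IDs may share reads with its neighbours. Whether their reads come from separate transcripts was not tested, because the sources used here do not say how strands or multiply mapped reads were handled.

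Glyma.16G137000, the only on/off member that was tested, split the libraries another way. It stood at 14.6, 20.8, 3.38 and 21.3 CPM in high_force 018, 044, 060 and 071 and at 24.1 CPM in low_force 072. It had 1 count in high_force 015, 7 in low_force 038, 2 in low_force 055, 2 in low_force 109 and 0 in low_force 092. At the 3.38 CPM of high_force 060, low_force 055 would have given 3.11 counts, so its 2 counts (2.17 CPM) do not place it. High_force 018, 044 and 071 and low_force 072 were thus high, at 14.6 CPM or more. High_force 060 lay between these and low_force 038 (0.813 CPM). The groups overlapped (log2 fold change of high_force minus low_force 1.17, SE 1.28, adjusted p = 0.892 in edgeR's quasi-likelihood test).

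Other on/off members marked 1 to 3 libraries each. Glyma.16G137300 lay at 9.08 CPM in high_force 015 (55 counts), 4.34 CPM in low_force 055 (4 counts) and 3.45 CPM in low_force 072 (15 counts), with 1.28 CPM in low_force 038 and at most 2 counts in the other 6. Those 3 are the libraries with high LHY1a. Glyma.16G138600 had 47 counts in low_force 092 (4.69 CPM), 3 in low_force 055 (3.26 CPM) and at most 1 in any other library. Glyma.16G144100 had 63 counts in low_force 109 (6.35 CPM), the library with abundant Gy1, then 10 in low_force 038 (1.16 CPM) and at most 2 elsewhere. In high_force 015, low_force 055 and low_force 072, Glyma.16G136000 had 19, 1 and 10 counts (3.14, 1.09 and 2.30 CPM), with at most 0.563 CPM elsewhere. In the same order Glyma.16G136200 had 10, 3 and 10 counts (1.65, 3.26 and 2.30 CPM) and Glyma.16G136900 had 12, 3 and 20 (1.98, 3.26 and 4.60 CPM). Both had at most 1.16 CPM elsewhere. The libraries with high LHY1a were thus the highest here too, though low_force 055 rests on at most 3 counts. The part of LHY1a in this was not tested. Glyma.16G138400 was highest in low_force 055 (3 counts, 3.26 CPM) and high_force 015 (17 counts, 2.81 CPM), with at most 0.302 CPM elsewhere. Glyma.16G138700 met the rule through 29 counts in low_force 092 (2.89 CPM).

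**Figure D2:**
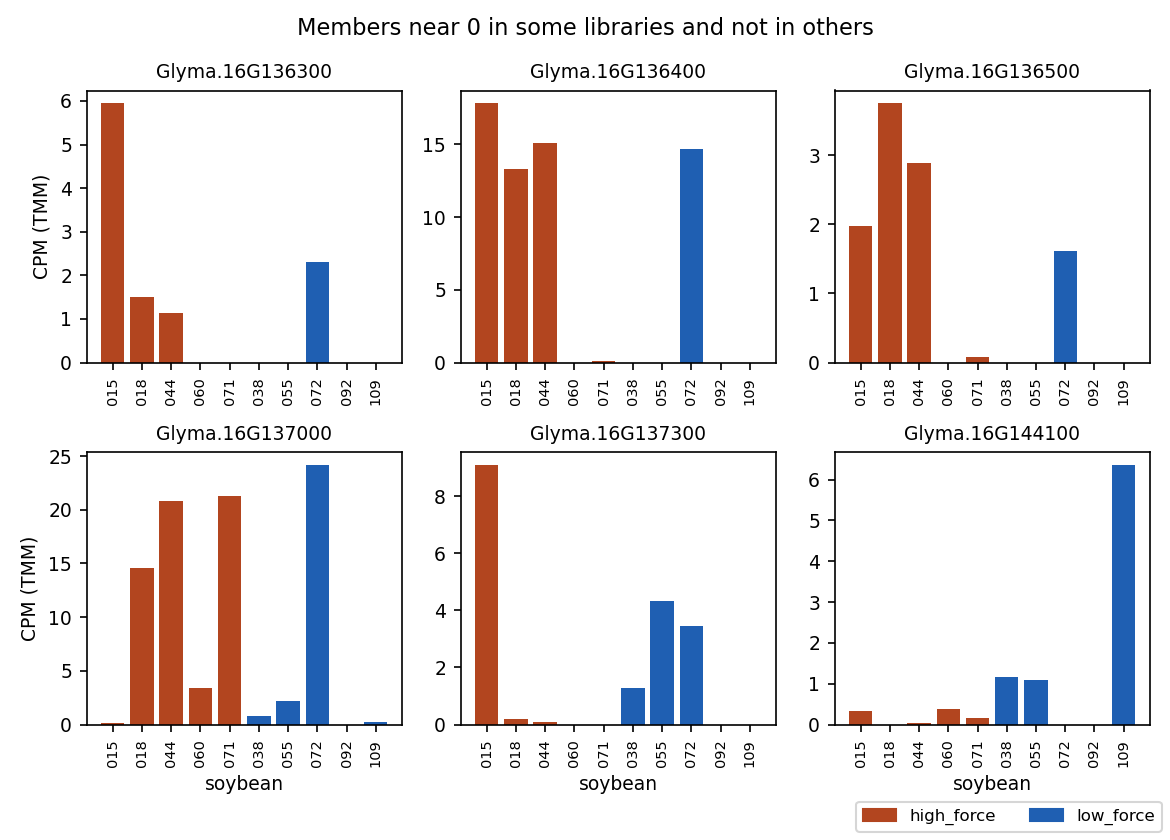
CPM of 6 on/off members in each of the 10 libraries, as bars from 0, with high_force soybeans first. Glyma.16G136300, Glyma.16G136400 and Glyma.16G136500 have bars in the same 4 libraries (015, 018, 044 and 072), Glyma.16G137000 in another set, and Glyma.16G144100 mainly in low_force 109.

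After adjustment over all genes tested, no member passed between the force groups. At adjusted p under 0.05 the quasi-likelihood test of edgeR called 0 of 64 members, against 0% of the 30226 genes tested (smallest adjusted p of a member 0.796), and DESeq2 and limma-voom also called 0 members. At unadjusted p under 0.05 there were 6 members (9.38%) against 6.26% of all genes tested, 2 higher in high_force (2.47% of all genes) and 4 lower (3.79%). With library size only as scaling, which moved the median log2 fold change of all genes to 0.54, there were 7 members, 6 higher and 1 lower, against 5.33% of all genes. Among the 7 libraries with low LHY1a there were 9 of 68 members, against 11% of all genes. Without high_force 071 or low_force 092 there were 2 members each, against 4.13% and 3.97% of all genes. Without high_force 018, 044 or 060 there were 3 each, against 4.12%, 4.77% and 4.47%, so the share over all genes was lower as well. The groups overlapped in every tested member: 0 of 64 had all libraries of 1 group above all of the other, against 0.986% of all genes tested.

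The fold changes of the members were centred on 0. Of the 64, 31 were higher and 33 lower in high_force, with a median log2 fold change of -0.0091, against -0.014 over all genes tested. Their middle range, -0.27 to 0.29, was like that of all genes (-0.31 to 0.26). A log2 fold change beyond 1 in either direction was seen for 6 members (9.38%) against 7.16% of all genes. The sign did not hold over long distances, since the longest runs of neighbouring tested members with 1 sign had 5 members. These were Glyma.16G135200 to Glyma.16G137800 (higher in high_force) and Glyma.16G138000 to Glyma.16G138800 (lower). Pdh1, in the middle of the stretch, had a log2 fold change of -3.82 (SE 0.81, edgeR unadjusted p = 0.000474, adjusted p = 0.796), further from 0 than any of the 64 members.

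In edgeR, the tested member with the smallest p was Glyma.16G138200, 32 IDs before Pdh1. Its levels were 10.9, 6.93, 3.88, 5.07 and 5.74 CPM in high_force 015, 018, 044, 060 and 071. In low_force 038, 055, 072, 092 and 109 they were 14.2, 18.5, 14.9, 19.9 and 6.45 CPM. Only low_force 109 fell within the range of high_force. The means were 6.50 ± 2.69 CPM and 14.8 ± 5.22 CPM (SD, n = 5 each), with a log2 fold change of -1.17 (SE 0.36, edgeR unadjusted p = 0.00683, adjusted p = 0.796). In the two-sided exact permutation test over all labellings, whose smallest possible p is 0.00794, it had p = 0.0238 (0.797 adjusted over all genes tested). The log2 fold change lay between -1.44 and -1.02 when each soybean was left out in turn, and was -0.87 without low_force 055 and 092 together. With library size scaling it was -0.57, which is -1.11 relative to the median of all genes. Its unadjusted p was then no longer under 0.05. DESeq2, fitted without the filter on low counts, gave Glyma.16G138600 a smaller unadjusted p (0.00226) than Glyma.16G138200 (0.00302). The DESeq2 adjusted p was 0.257 and 0.285, and Glyma.16G138600 had 47 of its 54 counts in low_force 092.

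Glyma.16G142100 and Glyma.16G142500, 7 and 11 IDs after Pdh1, were set apart by 1 library. Glyma.16G142100 stood at 40.3 CPM in low_force 092 (404 counts) and at 1.09 to 5.06 CPM in the other 9, a step of 7.97-fold to the next library. Glyma.16G142500 stood at 63.1 CPM in low_force 092 (632 counts) and at 7.15 to 19.6 CPM in the other 9. The log2 fold changes of -1.92 (SE 0.75) and -1.17 (SE 0.50) shrank to -0.36 and -0.39 without low_force 092. The adjusted p was 0.796 for both in edgeR with all libraries.

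Of the other 3 members at unadjusted p under 0.05, Glyma.16G140200 was lower in high_force. Its levels were 12.4, 15.6, 19.6, 14.3 and 11.1 CPM in high_force 015, 018, 044, 060 and 071, and 18.5, 20.6, 18.6, 27.7 and 19.1 CPM in low_force 038, 055, 072, 092 and 109. High_force 044 alone reached into the range of low_force (log2 fold change -0.52, SE 0.23, edgeR adjusted p = 0.796). With library size scaling its value was 0.039, which is -0.50 relative to the median of all genes. Glyma.16G135200 was scarce, with 0 counts in low_force 055, 072 and 092, levels of 0.464 and 1.21 CPM in low_force 038 and 109, and 0.375 to 2.81 CPM in the high_force libraries (log2 fold change 2.0, SE 0.86, and 3.34 without low_force 109). The low_force values lay within or below the high_force range. Glyma.16G137200 lay between 2.33 and 6.38 CPM in high_force and between 0.599 and 3.26 CPM in low_force (1.11, SE 0.51).

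**Figure D3:**
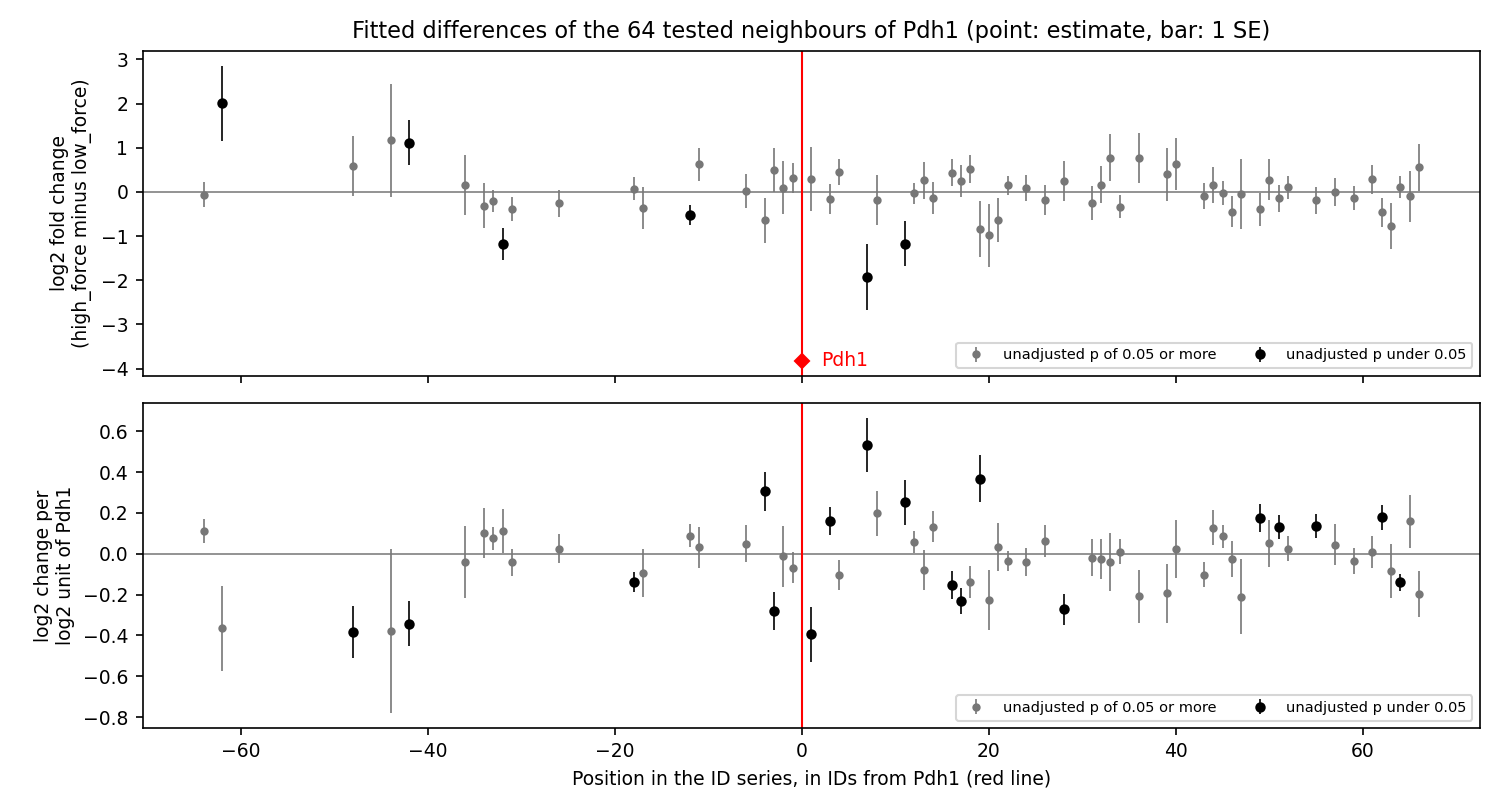
Fitted values of the 64 tested neighbours of Pdh1 by position in the ID series (0 is Pdh1), with points for estimates and bars for 1 SE. The upper panel gives the log2 fold change of high_force minus low_force, where 6 members in black had unadjusted p under 0.05 and Pdh1 in red lies at -3.82, and the lower panel gives the log2 change per log2 unit of the Pdh1 level, where 18 members had unadjusted p under 0.05.

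The level of the members was also fitted on the level of Pdh1, as log2 CPM across the 10 libraries. Pdh1 itself lay mostly higher in low_force, so this fit shares its libraries with the comparison above and is not separate from it. EdgeR's quasi-likelihood test passed 0 of 64 members at adjusted p under 0.05, as it passed 0% of the 30225 genes tested (smallest adjusted p of a member 0.155). At unadjusted p under 0.05 there were 18 members (28.1%), against 17.4% of all genes. Of these, 9 had a positive slope on Pdh1 (10.2% of all genes) and 9 a negative one (7.26%). The shares in the 130 IDs before and after the stretch were 16.7% and 17.5%.

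That count depends on single libraries, on scaling and on the terms of the fit. With the force group as a term it was 24 of 64 members, against 20% of all genes. Of these, 15 had a positive and 9 a negative slope (smallest adjusted p of a member 0.0944 in edgeR). Without low_force 092 it was 11 of 65 members, 2 with a positive and 9 with a negative slope, against 6.88% of all genes. Without low_force 055 and 092 together, a choice made after seeing the data, it was 3 members, against 4.53%. With library size scaling it was 5 members, 4 with a positive and 1 with a negative slope, against 4.84%. Low_force 092 and 109 have the highest Pdh1 levels, while low_force 055, with 0 counts, enters the fit at a log2 CPM of -2.05 that the prior count sets.

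The 5 members with the smallest p on the Pdh1 level had slopes of both signs. Glyma.16G142100, described above, had a slope of 0.53 log2 units per log2 unit of Pdh1 (SE 0.13, edgeR adjusted p = 0.155), which was 0.15 without low_force 092. Glyma.16G141000, only 4 IDs before Pdh1, had a slope of 0.31 (SE 0.097, edgeR adjusted p = 0.173), between 0.26 and 0.35 when each soybean was left out. It stood at 1.65, 7.49, 4.38, 5.07 and 5.91 CPM in high_force 015, 018, 044, 060 and 071, and at 8.94, 1.09, 3.68, 8.18 and 14.0 CPM in low_force 038, 055, 072, 092 and 109. The 3 libraries with high LHY1a (015, 055 and 072) were also its 3 lowest, though the rank of low_force 055 rests on 1 count. The part of LHY1a in this was not tested.

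Glyma.16G143100, Glyma.16G144200 and Glyma.16G147800 had negative slopes of -0.23 (SE 0.064), -0.27 (SE 0.077) and -0.14 (SE 0.043), with edgeR adjusted p between 0.160 and 0.172. Glyma.16G143100 lay at 54.8, 34.8, 35.6, 34.0 and 46.9 CPM in high_force 015, 018, 044, 060 and 071, and at 43.0, 62.9, 37.9, 13.9 and 19.6 CPM in low_force 038, 055, 072, 092 and 109. Low_force 092 and 109, the libraries with most Pdh1, were the lowest for all 3 genes, and low_force 055, with no Pdh1 count, was the highest.

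Of the IDs next to Pdh1, neither separated the force groups. Glyma.16G141300, directly before it, stood at 12.05, 7.87, 20.8, 9.58 and 10.2 CPM in high_force 015, 018, 044, 060 and 071 and at 7.20, 11.9, 6.44, 8.78 and 14.8 CPM in low_force 038, 055, 072, 092 and 109. Glyma.16G141500, directly after it, stood at 71.0, 6.75, 13.7, 8.07 and 16.4 CPM and at 13.7, 52.1, 23.0, 6.49 and 6.55 CPM in the same order. The log2 fold change was 0.32 (SE 0.33) for Glyma.16G141300 and 0.29 (SE 0.73) for Glyma.16G141500, which turned to -0.73 without high_force 015. For Glyma.16G141500 the 3 libraries with high LHY1a were the 3 highest.

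Of the other 6 nearest IDs, Glyma.16G141600 was silent. Between the groups, Glyma.16G141100 differed by 0.49 (SE 0.50) and Glyma.16G141200 by 0.099 (SE 0.61) on the log2 scale, the latter between -0.43 and 0.54 when each soybean was left out. Glyma.16G141700 had -0.16 (SE 0.34) and Glyma.16G141800 0.46 (SE 0.29). Glyma.16G141000 had -0.64 (SE 0.51), and its groups overlapped. None of these passed between the force groups in edgeR (adjusted p between 0.833 and 0.984 over the 7 that were tested). On the Pdh1 level, slopes were -0.28 (SE 0.095) for Glyma.16G141100, -0.39 (SE 0.14) for Glyma.16G141500 and 0.16 (SE 0.066) for Glyma.16G141700. With Glyma.16G141000, above, these had edgeR unadjusted p under 0.05, as had 17.4% of all genes, but adjusted p between 0.173 and 0.248. The other tested nearest IDs had slopes between -0.10 and -0.013. Only Glyma.16G141000 kept unadjusted p under 0.05 without low_force 055 and 092 together.

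**Figure D4:**
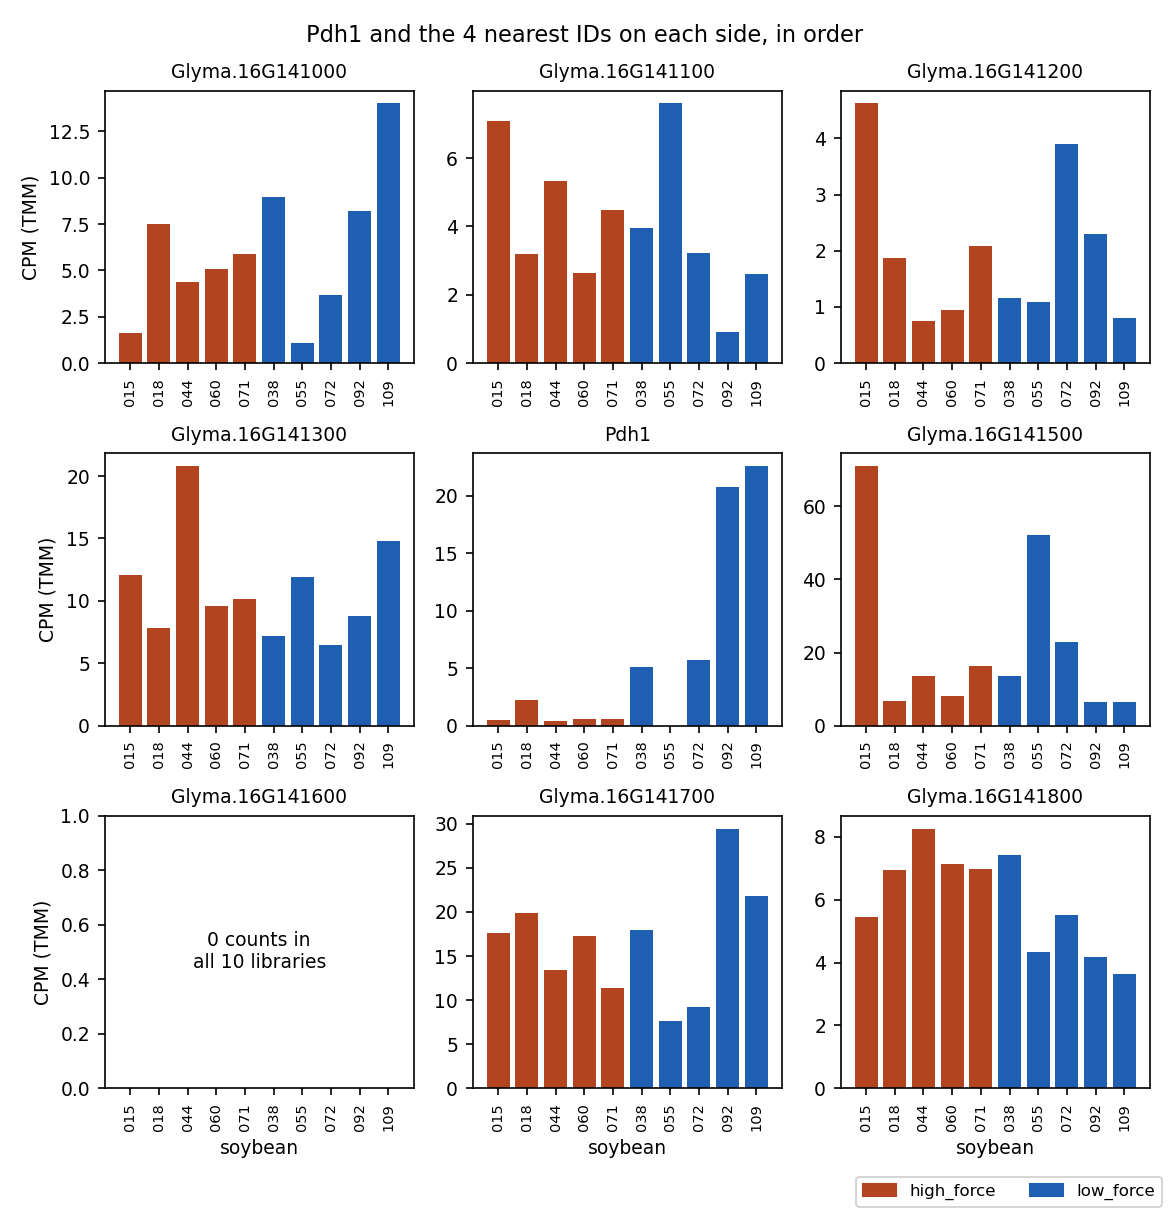
CPM of Pdh1 and of the 4 nearest IDs on each side in the 10 libraries, as bars from 0, in ID order with high_force soybeans first. Pdh1 is near 0 in the high_force bars and at 20.8 and 22.6 CPM in low_force 092 and 109, Glyma.16G141600 is silent, and the groups overlap in each of the other 7 neighbours.

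Low_force 092 and 055 stood out along the stretch about as often as over all genes. Low_force 092 was the highest library for 16 members (25%, against 23.6% of all genes tested) and the lowest for 17 (26.6%, against 22.4%). Low_force 055 was the highest for 14 (21.9%, against 16.9%) and the lowest for 15 (23.4%, against 27.5%). Low_force 038 was the highest for 0 members, against 5.07% of all genes, and the lowest for 8 (12.5%, against 5.27%).

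Low_force 092 stood at least 2-fold above every other library for 3 members (4.69%, against 3.87% of all genes). These were Glyma.16G142100 and Glyma.16G142500, above, and Glyma.16G146300, at 78.8 CPM against 19.96 to 32.8 CPM in the other 9. It stood at least 2-fold below every other library for 7 members (10.9%, against 7.09%). Among these were Glyma.16G137800, with 2 counts (0.200 CPM) against 6.51 to 23.4 CPM in the other 9, Glyma.16G144600, at 2.0 CPM against 6.50 to 13.5 CPM, and Glyma.16G145000, at 1.80 CPM against 5.57 to 36.1 CPM. The 7 also hold Glyma.16G137000, with 0 counts in low_force 092, which allow up to 0.299 CPM, above its 0.165 CPM in high_force 015. Low_force 055 had 1 such high member (2.13% of all genes), Glyma.16G143400, which rests on 10 counts, and 6 such low members (9.38%, against 13.2%). Of these low members, Glyma.16G143300, Glyma.16G144700, Glyma.16G145400, Glyma.16G146400 and Glyma.16G147900 had 0 counts there, and Glyma.16G140300 had 2. As 0 counts there allow up to 3.26 CPM, a 2-fold step cannot be stated for the members at 0. Low_force 109 had 1 such high member, Glyma.16G142800, at 20.4 CPM against 4.34 to 10.1 CPM (0.288% of all genes). Low_force 038 had 2 such low members (3.12%, against 0.377%), of which Glyma.16G142700 lay at 5.34 CPM against 14.0 to 37.2 CPM.

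Among the 64 tested members, those split the same way as LHY1a were about as frequent as over all genes tested. The on/off members Glyma.16G136000, Glyma.16G136200, Glyma.16G136900 and Glyma.16G137300, described above, had such a split but were not tested, so they are outside these counts. High_force 015 and low_force 055 and 072 were all above the other 7 libraries for 4 members (6.25%, against 6.25% of all genes tested) and all below them for 5 (7.81%, against 6.76%). Among these 5, low_force 055 had 0 counts for Glyma.16G144700 and 1 count each for Glyma.16G141000 and Glyma.16G147100. The widest gap, 3.21-fold, was that of Glyma.16G146100, whose level was 38.4, 21.7 and 28.3 CPM where LHY1a was high and 3.25 to 6.76 CPM where it was low. Both groups hold such libraries, and its log2 fold change between the force groups was -0.052 (SE 0.79). The part of LHY1a in these patterns was not tested.

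**Figure D5:**
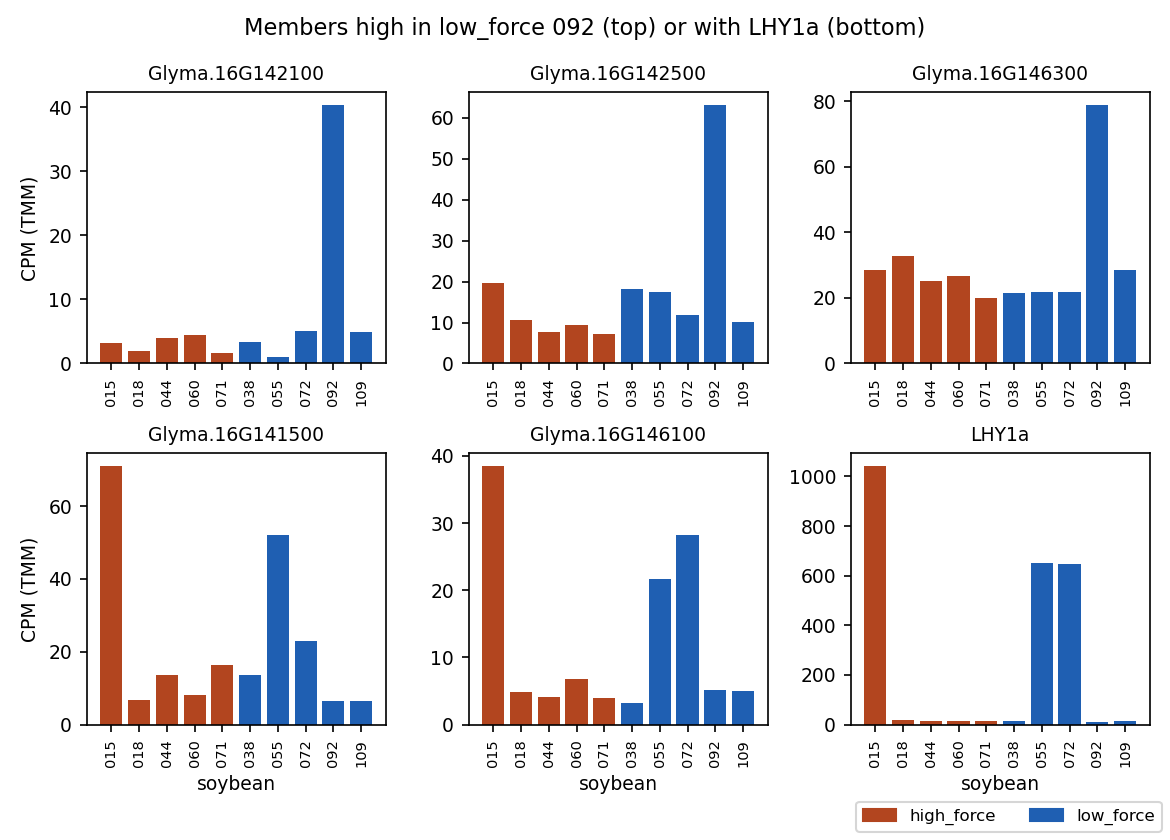
CPM of 5 members and of the clock gene LHY1a in the 10 libraries, as bars from 0, with high_force soybeans first. Glyma.16G142100, Glyma.16G142500 and Glyma.16G146300 are highest in low_force 092, while Glyma.16G141500 and Glyma.16G146100 are highest in 015, 055 and 072, the libraries with LHY1a between 646.7 and 1041 CPM.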

How the data were processed

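Raw counts per gene of 10 TruSeq RNA pod libraries (the kit is named per the labels' protocols) were deposited by the authors in 1 table. Per the submitters' processing notes, the tools were TopHat2, featureCounts, edgeR, Subread 1.6.2 and Trim Galore 0.4.4, with no role or setting given. The IDs end in Wm82.a2.v1. The genome build, strand handling and the treatment of multiply mapped reads are not given in the sources used here, so counts of near-identical or overlapping genes are uncertain.

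After TMM scaling, edgeR 4.0.16 in R 4.3.3 fitted quasi-likelihood models to the 30226 genes that filterByExpr kept, either by force group or by the log2 CPM of Pdh1 (prior count 2). SE is the estimate divided by the square root of F. P-values are two-sided and adjusted by Benjamini-Hochberg over all genes tested. DESeq2 1.42.0 and limma 3.58.1 were alternatives.

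The members, lists and rules were chosen with earlier results of these data known. Named members are the 4 with the highest mean CPM, up to 12 on/off members, the 5 with the smallest p in each fit, and the 4 IDs nearest to Pdh1 on each side. Others in the text were chosen after their values were seen. The gene table (Glycine_max_v4.0, 59048 genes) matched 0 of 56044 IDs, so members carry no names, roles, lengths or sequences here. Names of the other genes were paired with IDs from published work, as recalled.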

Additional observations from a re-analysis of the deposited data

Results flagged for a closer look

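Within groups of 5, 42 sets of values (the log2 CPM of the named members that were tested, the summed CPM of the stretch and its number of members with a count) were searched for a library far from the others. Chance picks about 1 in 20 such sets, and 3 were found. Glyma.16G136600 was far lower in high_force 015, at a log2 CPM of 4.47, than in the other high_force libraries (6.29 to 6.92). Glyma.16G140200 was far higher in low_force 092, at 4.81, than in the other low_force libraries (4.22 to 4.38). Glyma.16G142600 was lower in high_force 071, at 5.56, than in the other high_force libraries (5.88 to 5.95).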

How the results depend on the processing

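No member passed at adjusted p under 0.05 under any alternative run, in either fit. At unadjusted p under 0.05 between the force groups, 10 members were found with no filter on low counts (of 108 tested, against 7.65% of all genes) and 1 without low_force 055 and 092 together (against 3.66%). Leaving out each soybean gave 2 to 7 (3.97% to 8.65% of all genes), the lowest without high_force 071 or low_force 092, and 3 without high_force 018, 044 or 060. On the Pdh1 level there were 5 with library size only (4.84% of all genes), 3 without low_force 055 and 092 together (4.53%), 11 of 38 in the inner stretch from Glyma.16G138000 to Glyma.16G145000 (17.4%), and 11 to 21 when each soybean was left out (6.88% to 19.9%). With the force group as a term in that fit there were 24 of 64 (20% of all genes). Groups that did not overlap were seen for 3 members with library size only (5% of all genes), and for 0 to 1 when each soybean was left out (1.32% to 2.88%). Silent members numbered 35 at a limit of 3 counts, 14 in the inner stretch and 22 to 23 with a soybean left out. On/off members numbered 6 at 20 times the limit, 18 at 5 times, 18 with off at up to 3 counts, 5 in the inner stretch and 11 to 14 with a soybean left out.

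Log2 fold changes turned sign for a few members. With library size only, Glyma.16G140200, Glyma.16G141700 and Glyma.16G142600 had 0.039, 0.22 and 0.46, which are -0.50, -0.32 and -0.077 relative to the median of all genes. Glyma.16G141200 had -0.094 with limma-voom and -0.026 in the 7 libraries with low LHY1a, where Glyma.16G142600 had 0.017. With a soybean left out, Glyma.16G141200 ran from -0.43 to 0.54, Glyma.16G141500 from -0.73 to 0.91, Glyma.16G141700 from -0.32 to 0.11, Glyma.16G142600 from -0.15 to 0.16 and Glyma.16G144200 from -0.013 to 0.67. The cause was not tested. No paired analysis was possible because the groups share no soybean number. Low_force 055, with an effective depth of 921615 counts, limits every statement on members below 3.26 CPM.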
